A study of Homo sapiens with 3 samples.

Results

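The IgG library of a CUT&Tag experiment records where the transposase cut without an antibody against a chromatin mark. Most of its peaks here had no called H3K27ac peak within 1 kb. The set described here holds every IgG peak on chromosomes 1 to 22 and X with no peak of either H3K27ac list within 1 kb. It has 7127 of the 7701 IgG peaks used, which is a share of 92.5%, and 7127 of the 40378 peaks in all 3 lists. The H3K27ac lists cover only 10.4 and 8.76 Mb of about 3030 Mb of chromosome. A high share is therefore to be met by position alone. That share was not computed, so 92.5% is not shown to be at, above or below it. H3K27ac, acetylation of histone H3 at lysine 27, was profiled in A2780 cells, an established human ovarian carcinoma line, with 1 library per group. The IgG library came from A2780 cells, and its label names no peptide. The BPP library was H3K27ac in cells given the BPP peptide, described in the series design as a competitor for the site where BIN2 is phosphorylated. The CTR library was H3K27ac in cells labelled CTR. The sources used here do not give what those cells received; the comparator named for the RNA-seq was a TAT peptide. All results rest on these 3 libraries of 1 cell line, so differences lack replication and carry no p-value. Shares carry 95% Wilson intervals, which cover counting error only and treat peaks as independent. Read numbers are not given in the sources used here, and the depth of the lists is therefore unknown. The lists held 7701 IgG, 17841 BPP and 14836 CTR peaks. The label of the cells could be checked only against H3K27ac. Of 30 ovarian carcinoma and epithelial marker genes, none had an IgG peak of the set at a gene end, 5 had a BPP peak (ELF3, KRT18, KRT8, MSLN and MUC1) and 3 a CTR peak (KRT18, KRT8 and MUC1). PAX8, WT1, MUC16 and EPCAM had no peak at a gene end in any list. The marker shares were 0% for the set, 16.7% for BPP and 10% for CTR. Over all 19974 protein-coding genes they were 1.28%, 30.6% and 31.2%. The markers thus did not stand above the average gene, and these counts do not bear out the label.

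In CUT&Tag, a protein A fusion of the transposase Tn5 is drawn to antibody bound on chromatin and cuts the DNA beside it. With non-specific IgG no mark is targeted. The cuts that remain include those of untethered enzyme, for which open chromatin and DNA without nucleosomes are the usual substrates. What made the cuts in these peaks was not tested. A library of this kind is normally used to learn which places would be called without any mark. Nuclear copies of mitochondrial DNA are fragments of the mitochondrial genome inserted into chromosomes during evolution. They resemble the mitochondrial genome and each other, so a short read can fit several of them. RefSeq names many of these copies as pseudogenes after the parent gene, such as MTCYBP35 for a copy of cytochrome b.

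The members that carry sequence in the tables used here are few, and they show 2 minor kinds of place in the set, microRNA hairpins and promoters. Of 1558 RefSeq microRNA hairpins, 5 were overlapped by a member (0.321%), and each has 1 mature microRNA listed. Capitals mark the seed, bases 2 to 8, and sequences are from RefSeq on GRCh38.p14. No seed was shared among them.
hsa-miR-4485-3p: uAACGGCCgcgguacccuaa
hsa-miR-4531: aUGGAGAAggcuucuga
hsa-miR-6134: uGAGGUGGuaggauguaga
hsa-miR-4540: uUAGUCCUgccuguagguuua
hsa-miR-4478: gAGGCUGAgcugaggag
MIR4485 lies within MTRNR2L8, a nuclear copy of the mitochondrial large ribosomal RNA gene. The member over it (chromosome 11, 10507887 to 10508611) showed a fold of 6.01 with −log10 q 8.95, and ranked 39 of 7127 by −log10 q. The other 4 hairpins lay in members of −log10 q from 2.45 to 3.63, close to the bulk of the set. Those were at MIR4531 on chromosome 19 (fold 5.46), MIR6134 on chromosome X (fold 4.87), MIR4540 on chromosome 9 (fold 4.50) and MIR4478 on chromosome 9 (fold 4.34). For comparison, 0 hairpins were overlapped by the other IgG peaks, 48 by BPP peaks (3.08%) and 58 by CTR peaks (3.72%).

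Promoters under members were few, and how many would be met by position alone was not computed. Of 34961 RefSeq promoter windows, each running from 250 bases before to 50 after a start site, members overlapped 75 (0.215%). The other IgG peaks overlapped 88 (0.252%), BPP peaks 5511 (15.8%) and CTR peaks 6422 (18.4%). Among the 10 gene-end members of highest −log10 q, VOPP1 and CDC42BPA are the genes with an approved symbol whose promoter window was overlapped. Their windows are printed on the minus strand, 5′ to 3′, from RefSeq on GRCh38.p14, with capitals for the bases under the IgG peak. VOPP1 is at chr7:55571819-55572118 and CDC42BPA at chr1:227318443-227318742.
VOPP1: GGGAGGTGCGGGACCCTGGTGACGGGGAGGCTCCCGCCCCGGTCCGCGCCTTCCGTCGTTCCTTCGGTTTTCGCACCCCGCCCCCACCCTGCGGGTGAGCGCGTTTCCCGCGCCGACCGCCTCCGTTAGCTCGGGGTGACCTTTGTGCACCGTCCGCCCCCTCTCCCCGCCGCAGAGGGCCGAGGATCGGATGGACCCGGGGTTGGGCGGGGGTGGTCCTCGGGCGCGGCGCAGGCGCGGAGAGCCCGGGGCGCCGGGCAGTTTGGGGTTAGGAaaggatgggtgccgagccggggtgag
CDC42BPA: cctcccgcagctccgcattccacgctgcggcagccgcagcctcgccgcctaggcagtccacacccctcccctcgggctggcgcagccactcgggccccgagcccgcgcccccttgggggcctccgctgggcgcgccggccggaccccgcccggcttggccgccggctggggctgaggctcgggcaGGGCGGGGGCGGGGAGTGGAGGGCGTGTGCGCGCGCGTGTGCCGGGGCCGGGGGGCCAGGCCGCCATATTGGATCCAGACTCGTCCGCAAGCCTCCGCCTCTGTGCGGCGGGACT
VOPP1 encodes a vesicular protein and CDC42BPA the kinase MRCK alpha, an effector of CDC42. The VOPP1 window had a GC content of 74.7% and 39 CpG dinucleotides, with 274 bases under the peak. CDC42BPA had 79% GC and 38 CpG, with 115 bases under the peak. Both windows were richer in GC than the middle promoter of the set. Across the 75 promoters overlapped by members the median GC content was 60% (quartiles 51.5% and 70%), against 64.7% for the other IgG peaks, 62.7% for BPP, 64.7% for CTR and 58.7% for all promoters. The share of windows with an observed-to-expected CpG ratio of 0.6 or more was 53.3% for members, 90.9% for the other IgG peaks, 84.1% for BPP, 88.9% for CTR and 49.0% for all promoters. By this measure the members' promoters were closer to the whole promoter table than to promoters under H3K27ac peaks. The rule leaves out IgG peaks at acetylated promoters, so part of that order is set by the rule.

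The strongest members lay at nuclear copies of mitochondrial DNA. By rank of −log10 q, 16 of the first 16 members were within 2 kb of a pseudogene named for a mitochondrial gene. Folds and −log10 q values were computed per peak by the authors, and serve to describe and rank peaks inside 1 list. The first member (chromosome 8, 33011468 to 33012711) reached a fold of 23.1 with −log10 q 159.0, and lay 1.37 kb from MTND1P6, a copy of the gene of NADH dehydrogenase subunit 1. It was 472.0 kb from the nearest H3K27ac peak of either list, and NRG1, the gene of neuregulin 1, was the nearest coding gene at 237.4 kb. The next (chromosome 5, 94569763 to 94570939; fold 12.7, −log10 q 61.8) overlapped MTCYBP35 inside KIAA0825. After the first, the highest fold of any member was 16.3.

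Members ranked 3 and 4 were both on chromosome X. One (126471704 to 126473318; fold 12.3, −log10 q 38.7) overlapped MTCO1P53, MTND4LP1 and MTND4P24, and was the widest member at 1615 bp. Its neighbour in rank (126729048 to 126730172; fold 16.3, −log10 q 35.8) overlapped MTCYBP38. A chromosome 11 member (10509655 to 10510339; fold 11.98, −log10 q 34.7) lay 0.478 kb from MTRNR2L8 and 1.33 kb from RNF141, a ring-finger protein gene. With the member over MIR4485 it makes a pair at the same copy.

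The next pair had equal values, each at fold 14.8 and −log10 q 31.3. The first (chromosome 7, 142665565 to 142666852) lay 0.164 kb from MTRNR2L6, within the T cell receptor beta locus. The second (chromosome 14, 32484181 to 32485119) overlapped MTCO1P2 inside AKAP6, which encodes an anchoring protein of protein kinase A. This one was among the closest of the strong members to acetylated chromatin, 3.17 kb from a BPP peak and 9.55 kb from a CTR peak. Ranks 8 to 10 overlapped MTCO1P22 on chromosome 5 (fold 9.06), MTND5P9 and MTND4P8 on chromosome 4 (fold 14.6), and MTCYBP16 on chromosome 4 (fold 10.3). Rank 12 overlapped MTRNR2L10 on chromosome X (55181464 to 55182672; fold 12.9, −log10 q 22.3). The MTRNR2L copies carry an open reading frame like that of humanin, a small peptide read from the mitochondrial large ribosomal RNA. The gene table lists all of those met here as pseudogenes. The 5 widest members, from 1615 to 1288 bp, were at mitochondrial copies too. Besides those at ranks 3, 7 and 9 they were a member over MTND4P26 and MTND5P28 on chromosome 2 (1574 bp, fold 6.22) and one over MTRNR2L12 on chromosome 3 (1323 bp, fold 12.02).

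The share of members at such copies depended on strength. Within 2 kb lay 29 of the 32 members with a −log10 q of 10 or more (90.6%), 23 of 138 between 5 and 10 (16.7%), 20 of 1516 between 3 and 5 (1.32%) and 2 of 5441 under 3 (0.0368%). Over the whole set this was 74 of 7127 (1.04%, 0.828 to 1.30). It was 5 of 574 other IgG peaks (0.871%, 0.373 to 2.02), 8 of 17841 BPP peaks (0.0448%, 0.0227 to 0.0885) and 4 of 14836 CTR peaks (0.0270%, 0.0105 to 0.0693). Counted by overlap alone, 55 members, 3 other IgG peaks, 2 BPP peaks and 1 CTR peak touched such a pseudogene. The interval of the members lay above those of both H3K27ac lists and overlapped that of the other IgG peaks. Among the 30 peaks of highest −log10 q in each set, 27 members lay within 2 kb, against 4 other IgG peaks, 0 BPP peaks and 1 CTR peak. The choice of these pseudogenes was made after the strongest members had been seen, so the counts are a description. The members were defined by the absence of H3K27ac peaks nearby, and copies inside acetylated chromatin are thereby left out of the set. Whether IgG served as control when the H3K27ac peaks were called is not given. If it did, H3K27ac peaks at strong IgG sites could have been removed by the calling, and this was not tested. Reads from near-identical copies, or from the mitochondrial genome itself, can be placed on the wrong copy; their part in these peaks was not tested. The 3 lists held no row on the mitochondrial chromosome.

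**Figure D1:**
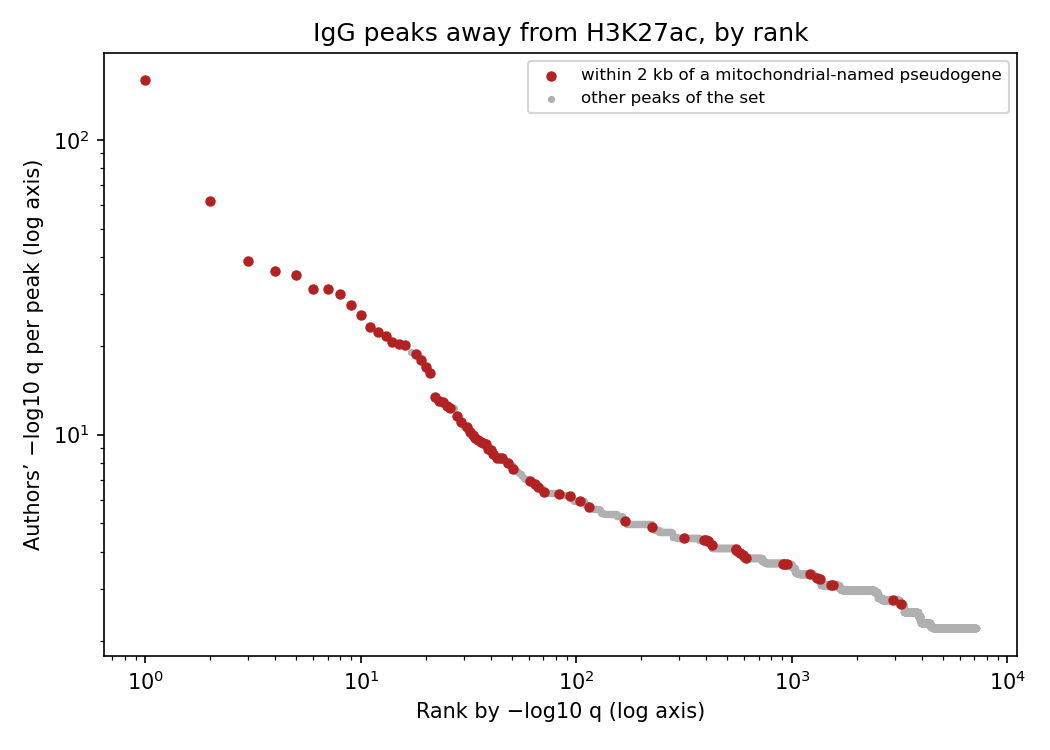
Each point is 1 of the 7127 IgG peaks away from H3K27ac, placed by its rank (horizontal, log axis) and the authors' −log10 q (vertical, log axis). Red points, within 2 kb of a mitochondrial-named pseudogene, fill the first 16 ranks and thin out below a −log10 q of 10, with 2 of them under 3.

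Seen from the copies, 75 of 479 mitochondrial-named pseudogenes were overlapped by a member (15.7%, 12.7 to 19.2), against 7 by other IgG peaks, 2 by BPP peaks and 1 by a CTR peak. Copies of the large ribosomal RNA gene were hit at 6 of 13 (46.2%, 23.2 to 70.9). For subunit 1 of NADH dehydrogenase it was 9 of 35 (25.7%, 14.2 to 42.1), for cytochrome b 10 of 43 (23.3%, 13.2 to 37.7) and for subunit 1 of cytochrome oxidase 13 of 57 (22.8%, 13.8 to 35.2). The lowest share was 2 of 46 for subunit 3 of cytochrome oxidase (4.35%, 1.20 to 14.5). Copies differ in length, with medians of 1231 bp for the ribosomal RNA and 628 bp for that subunit, and most of the intervals overlap. Every parent gene in the list had at least 1 copy under a member. The unknown use of IgG in calling the H3K27ac peaks limits the comparison with BPP and CTR here too.

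Larger insertions held members more often. Pseudogenes no more than 2 kb apart were joined into 174 blocks, of which 45 held a member (25.9%, 19.9 to 32.8). Among the 31 blocks of 5 or more pseudogenes, with a median length of 6364 bp, 21 held one (67.7%, 50.1 to 81.4). The 70 blocks of 2 to 4 pseudogenes had 16 (22.9%, 14.6 to 34.0), and the 73 single pseudogenes had 8 (11.0%, 5.66 to 20.2). The intervals of the largest and the smaller blocks did not overlap. A longer block offers more sequence in which a peak can fall, and no correction for length was made. The block from MTND1P4 to MTCYBP5 (chromosome 7, 57185408 to 57197772) held 3 members, and that from MTCYBP17 to MTND1P22 (chromosome 4, 155451617 to 155463823) held 2.

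Only 3 members with a −log10 q of 10 or more were not near such a copy. The strongest was intergenic (chromosome 9, 33657753 to 33658586; fold 10.3, −log10 q 19.1), 18.04 kb from a BPP peak and 59.1 kb from a CTR peak. Another lay inside PYGB, the brain glycogen phosphorylase gene, and within 1 kb of an end of ABHD12, which encodes a lysophosphatidylserine lipase (chromosome 20, 25293818 to 25294260; fold 9.82, −log10 q 12.3). The last was on chromosome 14 (83588433 to 83589140; fold 9.34, −log10 q 10.6), with H3K27ac peaks at 5.22 kb in BPP and 5.37 kb in CTR. Each of these had a fold within the range of the members at mitochondrial copies.

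The bulk of the set was weak and nearly uniform in strength. A single combination of values (fold 3.58, −log10 q 2.20) was shared by 2312 of the 7127 members (32.4%), against 49 of the 574 other IgG peaks (8.54%). The 5 most common combinations took in 57.8% of members and 21.4% of the other IgG peaks. In the H3K27ac lists the most common combination held 0.594% of BPP and 0.681% of CTR peaks. Median fold was 4.17 in members (quartiles 3.58 and 4.74) and 4.87 in the other IgG peaks (quartiles 4.17 and 6.14). Median −log10 q was 2.51 in members and 3.23 in the other IgG peaks, and 5441 members (76.3%) were under 3. Median width was 456 bp in members and 472 bp in the other IgG peaks. Width followed strength within the set, with medians of 842 bp at a −log10 q of 10 or more, 549.5 bp between 5 and 10, 485 bp between 3 and 5 and 445 bp under 3. The strongest IgG peaks of all lay outside the set, as the highest −log10 q was 159.0 in members and 869.1 in the other IgG peaks.

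Distance to the nearest called H3K27ac peak was usually large, and the rule sets its lower limit. BPP peaks cover 10.4 Mb and CTR peaks 8.76 Mb of about 3030 Mb of chromosome, so most places lie outside them. The distance to be met by position alone was not computed. The median member lay 105.8 kb from the nearest H3K27ac peak of either list, with quartiles of 24.1 and 416.3 kb and a maximum of 5449 kb. Beyond 10 kb lay 6222 members (87.3%, 86.5 to 88.1), beyond 100 kb 3633 (50.98%, 49.8 to 52.1) and beyond 1000 kb 706 (9.91%, 9.23 to 10.6). Few members depend on the exact distance. The members nearest the limit were at 1.01 kb inside PRKCD, the gene of protein kinase C delta (fold 4.29), at 1.02 kb beside CDKL1 (fold 6.49) and at 1.02 kb inside C1QTNF3 (fold 4.55). Just outside it were an IgG peak at 0.999 kb over MTND5P37 and MTND4P37 (fold 8.44), one at 0.989 kb near TMSB10 (fold 4.06) and one at 0.981 kb inside ITPK1 (fold 4.06). Of the 574 IgG peaks left out, 410 overlapped an H3K27ac peak and 164 lay within 1 kb without overlap.

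A smaller share of members than of H3K27ac peaks lay at the ends of genes, and over 50% of members lay outside protein-coding genes. Protein-coding spans sum to 1293 Mb, overlapping genes counted each time, of about 3030 Mb of chromosome. Members numbered 2.56 per Mb of those spans and 2.35 per Mb over all chromosomes, so their density inside genes was near the average. The gene-end share to be met by position alone was not computed, so the members' share is not shown to be low against it. Within 1 kb of an end of a protein-coding gene were 233 members (3.27%, 2.88 to 3.71), against 24.7% of the other IgG peaks (21.4 to 28.4), 30.4% of BPP peaks (29.7 to 31.1) and 36.4% of CTR peaks (35.6 to 37.2). H3K27ac peaks concentrate at gene ends and the rule removes IgG peaks near them, so the lower share than in those lists is partly built into the set. Elsewhere inside protein-coding genes lay 3048 members (42.8%, 41.6 to 43.9), with 31.9% of the other IgG peaks, 44.8% of BPP and 37.2% of CTR peaks. Outside protein-coding genes, here called intergenic, lay 3846 members (53.96%, 52.8 to 55.1), with 43.4% of the other IgG peaks, 24.7% of BPP and 26.4% of CTR peaks. The intergenic share of members was 29.2 percentage points higher than in BPP (Newcombe interval 27.9 to 30.5) and 27.5 points higher than in CTR (26.2 to 28.9). An intergenic member lay at a median of 78.3 kb from the nearest coding gene, against 99.3 kb for the other IgG peaks, 33.1 kb for BPP and 48.0 kb for CTR. Some intergenic members touch genes of other kinds, since 4300 members in all touched an annotated gene of any kind (60.3%, 59.2 to 61.5). Genes for lncRNA were touched by 15.7% of members (14.8 to 16.5), 12.5% of the other IgG peaks, 14.9% of BPP and 15.9% of CTR peaks. No member touched an annotated tRNA, snRNA or rRNA gene, with an upper limit of 0.0539% for each kind. A tRNA gene was touched by 2 other IgG (0.348%), 32 BPP (0.179%) and 30 CTR peaks (0.202%). An rRNA gene was touched by 7 other IgG (1.22%), 12 BPP (0.0673%) and 18 CTR peaks (0.121%). The rule removes IgG peaks beside H3K27ac peaks, so the absence among members is partly set by it.

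**Figure D2:**
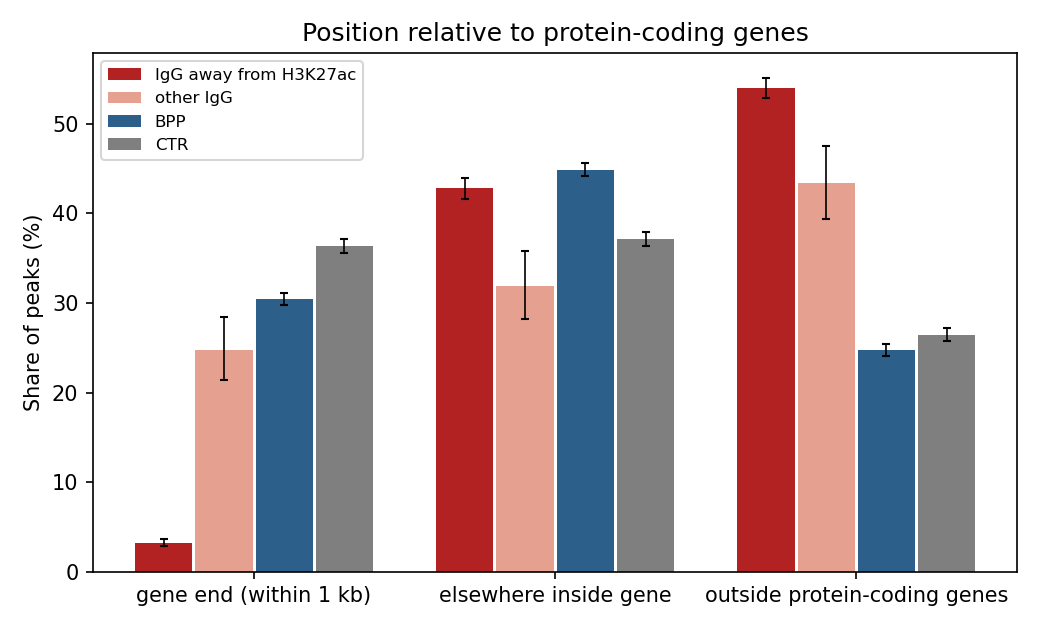
Bars give the share of peaks (%, from 0) at gene ends, elsewhere inside protein-coding genes and outside them for IgG peaks away from H3K27ac, other IgG peaks, BPP and CTR; error bars are 95% Wilson intervals. The set stands at 3.27% at gene ends and 53.96% outside protein-coding genes.

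Counted by gene, 255 of 19974 protein-coding genes had a member at an end (1.28%, 1.13 to 1.44), against 173 for the other IgG peaks (0.866%), 6115 for BPP (30.6%) and 6222 for CTR (31.2%). After ABHD12, the gene-end member of highest −log10 q was the one over MIR4485, which lay within 1 kb of an end of AMPD3, an AMP deaminase gene. VOPP1 (chromosome 7, 55571845 to 55572318) had a fold of 7.51 and CDC42BPA (chromosome 1, 227318058 to 227318557) a fold of 7.41, and their promoter sequences are those shown with the set's other examples. RNFT2, a ring-finger transmembrane protein gene, had a fold of 7.11 and ITGB2, which encodes the beta chain of leukocyte integrins, a fold of 7.15. MAGIX on chromosome X had 6.90, UXS1, the UDP-xylose synthase gene, 6.53, and BBS5, a subunit of the BBSome of cilia, 6.49. The last of the 10 lay within 1 kb of ends of KCNK15, a potassium channel gene, and RIMS4, a gene of synaptic exocytosis (chromosome 20, 44751862 to 44752423; fold 6.32). Apart from the AMPD3 member these lay away from mitochondrial-named pseudogenes, and their −log10 q ran from 12.3 down to 4.99.

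The genes with most members were long. With a member in the span or within 1 kb there were 2637 of 19974 genes (13.2%, 12.7 to 13.7). RBFOX1, which encodes a neuronal splicing factor, held 10 in 2.47 Mb (4.04 per Mb). CNTNAP2, a cell adhesion gene of the neurexin family, held 8 in 2.30 Mb (3.47 per Mb). LRMDA and KAZN held 7 each, at 6.20 and 5.71 per Mb. DYNC2H1, the heavy chain of the dynein of cilia, held 6 in 0.370 Mb, or 16.2 per Mb, the highest density among the 13 genes with 6 or more members. Of its 6 members, 3 formed 1 run over the mitochondrial copies from MTATP6P15 to MTND1P36, 2 of them within 2 kb of such copies. ADARB2 had 6 (10.7 per Mb), as did PTPRN2 (5.72 per Mb), ASIC2 (5.25 per Mb), GALNTL6 (4.89 per Mb) and LRRC4C (4.46 per Mb). The 9 genes with 6 members also include MAGI2, DLG2 and DMD, and the 6 named first were taken from the tie by their density. Of the 10 genes named so far, RBFOX1, CNTNAP2, LRMDA, KAZN, ASIC2, GALNTL6 and LRRC4C had no BPP or CTR peak in the span. All of these span 1 Mb or more, where BPP peaks numbered only 1.11 and CTR peaks 0.867 per Mb. The share of genes of that length without such a peak was not computed. Members lie away from H3K27ac peaks by the rule, so the absence is also partly set by it. PTPRN2, a receptor-type phosphatase gene, had 6 members beside 8 BPP and 6 CTR peaks.

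Density per Mb of gene changed far less with gene length in the set than in the H3K27ac lists. In genes of 1 Mb or more, 66 of 69 held a member (95.7%), and in genes under 10 kb 96 of 5658 (1.70%). Per Mb of span the members numbered 3.62 in genes under 10 kb, 2.87 from 10 to 50 kb, 2.60 from 50 to 200 kb, 2.38 from 200 kb to 1 Mb and 2.31 in genes of 1 Mb or more. In the same classes BPP peaks ran from 53.6 per Mb in genes under 10 kb down to 1.11 per Mb in those of 1 Mb or more, and CTR peaks from 45.0 to 0.867 per Mb. Members were thus more numerous than BPP or CTR peaks per Mb of the longest genes, with 221 members against 106 BPP and 83 CTR peaks there. The lists differ in length, so the trend within each list carries the comparison. H3K27ac peaks are densest in short genes and the rule removes IgG peaks near them, so the members' flatter trend is partly set by the rule. The other IgG peaks were not counted by gene length.

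**Figure D3:**
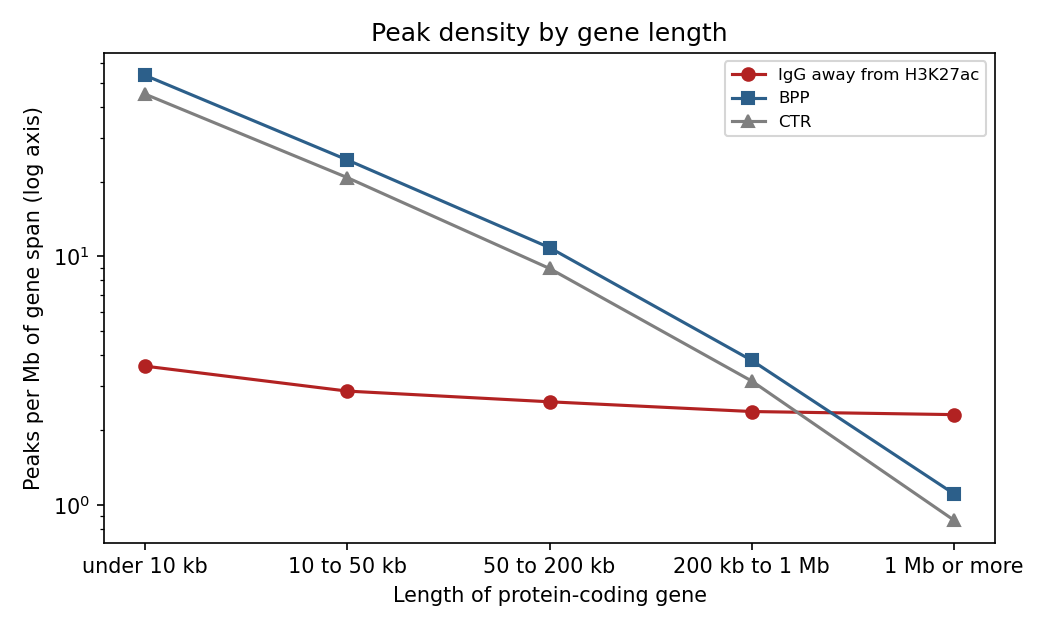
Points give peaks per Mb of gene span (log axis) in 5 classes of protein-coding gene length for IgG peaks away from H3K27ac, BPP and CTR. The set runs between 3.62 and 2.31 per Mb across classes, while BPP spans 53.6 to 1.11 and CTR 45.0 to 0.867. The rule removes IgG peaks near H3K27ac peaks, so the flatter trend of the set is partly set by it.

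Among the gene lists, the 2 of the longest genes had the highest shares with a member and the 2 of the shortest the lowest. In all lists a gene counts if a member lies in its span or within 1 kb. Of 23 matched genes of common fragile sites, which are long genes prone to breakage under replication stress, 22 held a member (95.7%, 79.0 to 99.2) against 13.2% of all genes. Their density of 2.08 per Mb was below the 2.56 per Mb of all genes. CNTNAP2 held 8, and MAGI2, DLG2 and DMD, the gene of dystrophin, held 6 each. Of 32 long synaptic and cell adhesion genes, 26 held one (81.3%, 64.7 to 91.1), at 1.86 per Mb, with 5 each in NTM, ROBO2 and CSMD1 and 4 in CDH13. The cytosolic ribosomal protein genes, which are short and highly transcribed, had 3 of 78 (3.85%, 1.32 to 10.7). These were RPS3, with a member in the span, and RPL3 and RPS18, with one only within 1 kb. Of 392 olfactory receptor genes, which are short and kept silent outside the nose, 10 had one (2.55%, 1.39 to 4.63), among them OR2L13, OR1I1, OR4N2 and OR51A4. The last 2 lists have median lengths of 4.91 and 2.94 kb, against 24.2 kb for all genes and 1380 kb for the fragile site genes. The ribosomal and olfactory lists had densities of 2.01 and 2.98 per Mb, from 1 and 9 members in the spans. The median gene held 2 members in the first 2 lists and 0 in the other lists and among all genes.

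The share of genes with a member in lists chosen for this tumour could not be told from that of all genes at these list sizes. Among 31 genes of histone deacetylases and co-repressors, 7 held a member (22.6%, 11.4 to 39.8), at 2.57 members per Mb and a median gene length of 41.5 kb, with 2 in HDAC4, a class II deacetylase, and 1 in MTA3. Of 40 DNA repair genes, 7 had one (17.5%, 8.75 to 32.0), at 1.48 per Mb and a median length of 61.2 kb, including ATM, the kinase of the double-strand break response, RAD51B, FANCC and MRE11. Of 30 ovarian carcinoma and epithelial markers, 4 had one (13.3%, 5.31 to 29.7), at 1.87 per Mb and a median length of 10.97 kb, which were MECOM, ESR1, MUC16 and CDH6. All 3 intervals include 13.2%, and the density of the last 2 lists was below the 2.56 per Mb of all genes. Of the genes named in the series title, HDAC1 had 1 member inside it (chromosome 1, 32320369 to 32320796; fold 4.74, −log10 q 2.97), 11.7 kb from a BPP peak and 13.7 kb from a CTR peak. RPS6, a protein gene of the small ribosomal subunit, had none, the nearest being 44.96 kb away (fold 3.95). BIN2 had none, with the nearest 205.6 kb away (fold 4.74).

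Along the chromosomes the members were spread evenly. The median gap between neighbouring members was 270.8 kb, with quartiles of 111.3 and 545.8 kb, against 1442 kb for the other IgG peaks, 31.9 kb for BPP and 47.6 kb for CTR. Gaps depend on the number of peaks, which differs between these sets, so they do not measure evenness. In 2939 bins of 1 Mb with any gene or peak, members numbered 2.42 per bin on average with a variance of 2.74, a ratio of 1.13. The ratio of variance to mean was 2.43 for the other IgG peaks, 12.2 for BPP and 8.89 for CTR. Bins without a member numbered 318 (10.8%), against 867 without a BPP peak (29.5%) and 845 without a CTR peak (28.8%). Across bins the members' count had a Pearson r of 0.14 and a Spearman rho of 0.17 with BPP, and 0.11 and 0.15 with CTR, whereas BPP against CTR gave 0.93 and 0.94. For all 7701 IgG peaks the values were 0.28 and 0.27 with BPP and 0.27 and 0.26 with CTR, and the ratio of variance to mean was 1.26. The rule removes IgG peaks beside BPP and CTR peaks, so the members' lower values and part of their evenness are set by it. These correlations are descriptions over bins that share libraries, mappability and base composition. In the 755 bins with no BPP or CTR peak the mean was 2.06 ± 1.46 members (SD over bins), and in the 535 bins with over 20 such peaks it was 2.86 ± 1.81.

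**Figure D4:**
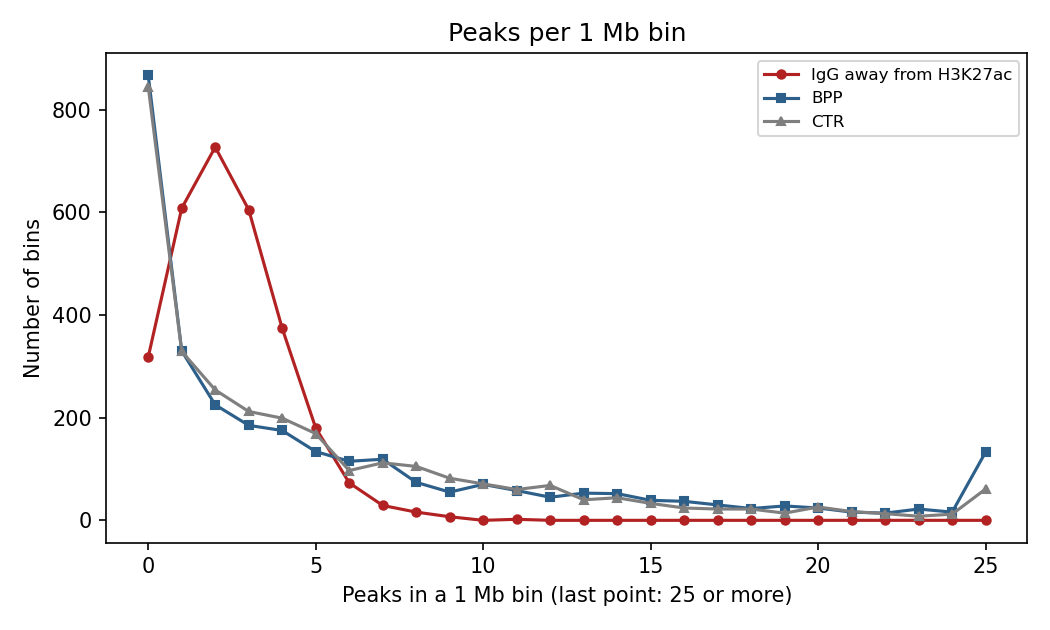
Lines give the number of 1 Mb bins (vertical) by the count of peaks in the bin (horizontal, last point 25 or more) for IgG peaks away from H3K27ac, BPP and CTR. The set peaks at 2 per bin and reaches 11 at most, while BPP and CTR are highest at 0 and reach 82 and 103.

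By chromosome, the set averaged 1.47 to 3.06 members per 1 Mb bin, a ratio of 2.08 between the extremes. BPP ran from 1.53 to 20.8 (ratio 13.6) and CTR from 1.69 to 16.3 (ratio 9.67). The lowest were chromosome 13 with 147 members (1.47 per bin) and chromosome 18 with 141 (1.76 per bin), and the next was chromosome 14 at 2.17. The highest were chromosome 17 with 254 (3.06 per bin) and chromosome 22 with 122 (2.90 per bin). On chromosome 13 the share of members at the lowest −log10 q was 61.2%, and on chromosome 18 it was 49.6%, against 36.9% over the set. On chromosome 19, which is dense in genes, the members averaged 2.54 per bin beside 20.8 BPP and 16.3 CTR peaks. On chromosome X there were 354 members for 357 BPP and 292 CTR peaks.

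**Figure D5:**
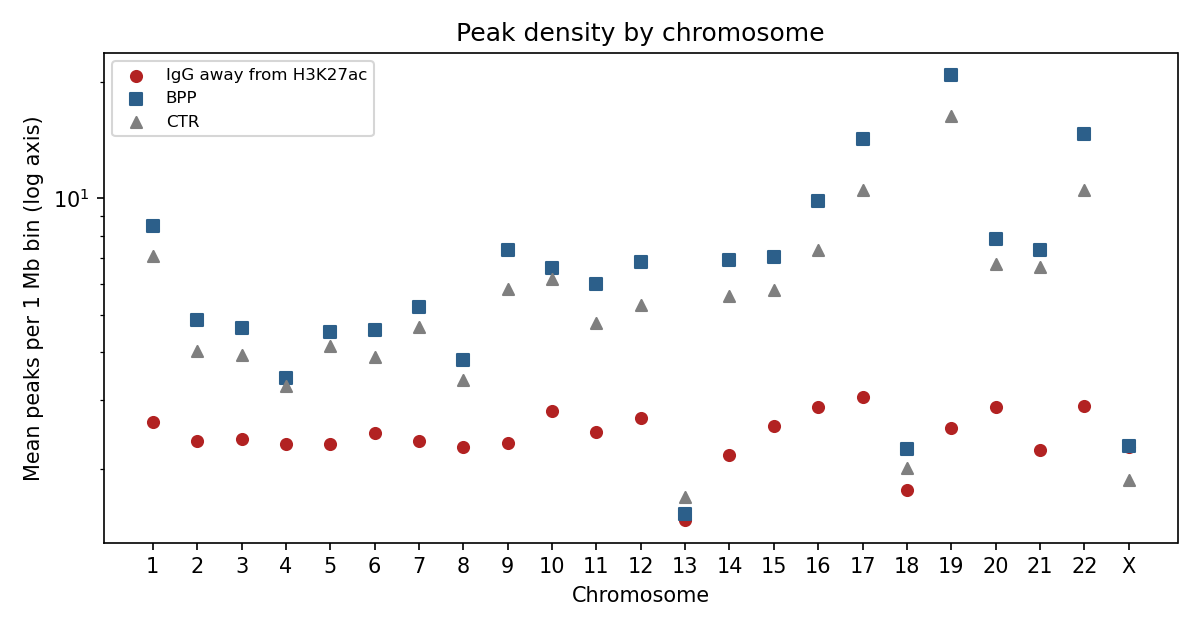
Points give the mean number of peaks per 1 Mb bin (log axis) on each chromosome for IgG peaks away from H3K27ac, BPP and CTR. The set stays between 1.47 (chromosome 13) and 3.06 (chromosome 17), and BPP and CTR reach 20.8 and 16.3 on chromosome 19.

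Clusters were rare, and several of them lay over mitochondrial copies. Another member within 10 kb was found for 260 members (3.65%, 3.24 to 4.11), against 11.1% of the other IgG peaks, 38.3% of BPP and 29.8% of CTR peaks having another of their own set. The sets differ in number of peaks, and these shares were not corrected for it. Joined at 10 kb, the members formed 6867 singles, 118 pairs, 6 runs of 3 and 1 run of 6. That run covered 26.1 kb (chromosome 4, 155440411 to 155466475) with folds from 3.58 to 14.6, and 4 of its 6 members lay within 2 kb of copies between MTCYBP17 and MTND1P22. Runs of 3 at mitochondrial copies were those in KIAA0825 (chromosome 5, 94560055 to 94570939), in DYNC2H1 (chromosome 11, 103404992 to 103411142) and on chromosome 7 (57186340 to 57197179). The other 3 were not near such copies and were weak, with a highest −log10 q of 3.37 in PRKAR1B, a regulatory subunit gene of protein kinase A (chromosome 7, 535705 to 550602). On chromosome 12 (54590330 to 54607044) the highest was 3.23, and at ADIPOQ, the adiponectin gene (chromosome 3, 186829651 to 186843139), it was 2.97. Of the 260 clustered members, 36 lay within 2 kb of a mitochondrial-named pseudogene (13.8%, 10.2 to 18.6), against 1.04% of all members.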

How the data were processed

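The data were 3 CUT&Tag peak lists, 1 per library. The submitters' processing notes name Bowtie2 2.4.1, fastp, deepTools 3.3.0 and the build GRCh38.p13 (hg38). Which peak caller was run, and whether IgG served it as control, is not given in the sources used here. Each deposited peak has the authors' score, fold (a ratio over an undescribed background), −log10 p-value and −log10 q-value. They are used within a list only. Rows outside chromosomes 1 to 22 and X were left out, 14 of 7715 in IgG, 28 of 17869 in BPP and 37 of 14873 in CTR. Gaps were counted between peak edges and overlap from 1 bp. Genes, promoters and microRNAs came from RefSeq on GRCh38.p14, a patch of the same build with the same chromosome coordinates. The gene table has no strand, so both gene ends count. Mitochondrial-named pseudogenes were 479 symbols beginning MTND, MTCO, MTCYB, MTATP or MTRNR. Bins of 1 Mb were used where they held any gene or peak. Members and gene lists were chosen with earlier results of these data known. Named peaks were the 12 of highest −log10 q, the 5 widest, the 10 strongest at gene ends, the 10 genes with most members (ties by members per Mb), runs of 3 or more members, up to 4 genes per list and the 3 on each side of the distance limit. Further peaks were named after their values were seen, such as the strong members without a mitochondrial copy nearby and those over microRNAs, and all of the 7 runs were named. A member and a gene that this rule would name are not reported here. FAM190A and RPL40 matched no symbol. The software was Python 3.11.15 with pandas 2.3.3, numpy 2.4.6, matplotlib 3.10.9 and scipy 1.17.1, and the overlap step was tested on simulated peaks against bedtools 2.31.1. Alternatives changed the distance, the thresholds, the gene-end window and the cluster distance.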

Additional observations from a re-analysis of the deposited data

How the results depend on the processing

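No paired analysis was possible because each group has 1 library, and for the same reason no replicate could be left out. Of the values under the alternatives chosen at the outset, 47 stayed within the counting interval (for counts, within 1.5 times) and 27 did not; each of those is given here. A −log10 q of 3 or more in IgG left 1686 members and 801 genes, with 4.98% at gene ends, 44.4% inside and 50.6% outside protein-coding genes, 2.49% clustered, a median fold of 5.32 and a width of 494 bp. A fold of 5 or more left 1376 members and 671 genes, with 5.23%, 45.1% and 49.7%, 1.89% clustered, a fold of 5.53 and 498.5 bp. Fold and width move because these thresholds select on strength. At a distance of 0 bp 3.81% lay at gene ends. At 5 kb 41.5% lay inside and 55.6% outside protein-coding genes, and at 10 kb 2.72% lay at gene ends, 40.2% inside and 57.1% outside. Gene-end windows of 500 bp gave 2.10% and of 2 kb 5.49%, with 41.3% inside. Cluster distances of 1 and 50 kb gave 0.168% and 22.3%. Excluding by BPP or CTR alone, or by H3K27ac peaks of −log10 q of 5 or more, moved no value past that interval. Alternatives chosen after seeing the data left out members near mitochondrial copies, which gave 3.13% clustered, 3.29% at gene ends and 53.7% outside protein-coding genes. Among members of −log10 q of 10 or more, 59.4% overlapped such a copy and 90.6% lay within 10 kb; at 5 or more 30.6% lay within 2 kb. Unknown depth limits every statement that a place holds no peak.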

Other observations

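The 1 Mb bins with most members ranged widely in H3K27ac peaks. The densest pair had 11 members each, beside 14 BPP and 8 CTR peaks on chromosome 17 (49000001 to 50000000) and 6 BPP and 3 CTR peaks on chromosome 3 (186000001 to 187000000). The chromosome 17 bin includes IGF2BP1, an RNA-binding protein gene, and NGFR, a neurotrophin receptor gene; the chromosome 3 bin includes ETV5 and the run at ADIPOQ. Of 7 bins with 9 members, that on chromosome 20 (24000001 to 25000000) had 0 BPP and 1 CTR peak, and that on chromosome 16 (87000001 to 88000000) had 20 BPP and 12 CTR peaks. These bins were picked for their counts, so their values are a description.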
